A study of Mus musculus with 4 samples.

Results

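The RNA levels of 10 germline and testis genes were followed in mouse embryonic stem (ES) cells: Pnma5, Rpl39l, Cyct, Dazl, Ddx4, Sycp1, Sycp3, Mael, Asz1 and Taf7l. They were found by symbol among the 22718 genes of the deposited RPKM files, and all 10 were present once. They were chosen by name as germline and testis genes that promoter methylation usually silences, and Pnma5, Rpl39l and Cyct were selected on their strongly raised KO/WT ratio in these same libraries. The ratios of those 3 genes are therefore a description and support nothing by themselves. The comparison rests on 1 polyA+ library of wild type ES cells and 1 library labelled Prep1-/- (KO2 line), a single line of each genotype. Both are labelled C57BL/6 and were grown with LIF, the cytokine that keeps ES cells undifferentiated. Prep1, encoded by Pknox1, is a homeodomain transcription factor that binds DNA as a dimer with Pbx proteins, and the study asked which genes depend on it in ES cells. A list of 3902 Prep1 ChIP-seq peaks from 1 sample of wild type ES cells (R1 in the study's methods) was used as well. With 1 library of each genotype there was no replicate and no test, and the effect of genotype cannot be told apart from that of the line.

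Germline genes carry out the work of egg and sperm formation: pairing and recombining chromosomes in meiosis, silencing transposons through small piRNAs, controlling stored mRNAs, and replacing widely used proteins by testis versions. In somatic tissues most of them are shut by DNA methylation or by repressor complexes at CpG-rich promoters. ES cells sit between these states, since they express part of the primordial germ cell programme while most meiotic genes stay low.

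The gene targeted in the knockout, Pknox1, was examined first. Its reads numbered 505 in wild type and 332 in the library labelled Prep1-/-, an RPKM of 7.85 and 5.78, with a KO/WT ratio of 0.736 (95% interval 0.638 to 0.846). Reads of Pknox1 thus remained, and the files do not show which part of the gene they came from. The study reports, by immunoblot, loss of Prep1 protein in its null lines, KO2 among them. RNA reads do not measure protein, and the label is used here only as a label. RPKM is the number of reads per kilobase of transcript, scaled to the size of the library, and the interval is the exact binomial (Clopper-Pearson) interval of the split of a gene's reads between the libraries, which covers counting error only. The libraries held 29596294 (wild type) and 25717811 (labelled Prep1-/-) reads. The median log2 KO/WT ratio of the 14254 genes with RPKM above 1 in either library was -0.07. The libraries also differed in chromosome Y: all 6 measured Y genes had 0 reads in wild type, while Ddx3y had 310, Eif2s3y 293, Uty 285 and Ube1y1 24 reads in the library labelled Prep1-/- (at least 116-fold, 109-fold, 106-fold and 8.95-fold higher). Against a count of 0, a fold is given here as a lower bound that puts 3 reads in its place. Calls used the ratio limits of the study, with the RPKM limit applied here to the higher library. They put 6.91% of the 14254 genes up, with a ratio above 1.5 where the library labelled Prep1-/- exceeded RPKM 1, and 13.3% down, with a ratio below 0.7 where wild type exceeded it.

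Most of the 10 genes were transcribed at a low level in wild type ES cells. Ddx4 was highest with an RPKM of 5.84 (335 reads), followed by Cyct at 4.89 and Mael at 4.85, and the counting intervals of these 3 neighbours overlapped. Taf7l (1.96), Sycp3 (1.87), Pnma5 (1.55), Rpl39l (1.54) and Dazl (1.03) formed the next stretch, and each interval in it overlapped that of its neighbour. Sycp1 lay below at 0.510 RPKM with an interval of 0.318 to 0.724. Asz1 had no read in wild type, which allows up to 3 reads at this depth. In the library labelled Prep1-/- the order was different at the top. Cyct led with 38.3 RPKM, then came Pnma5 with 20.5 and Rpl39l with 17.6, and no interval of these 3 overlapped that of its neighbour. Ddx4 (7.68) and Mael (5.93) followed, also apart from each other. The remaining 5 genes stayed at or below 2.37 RPKM. The order across genes also depends on the length behind each RPKM, which the counting intervals do not cover. Reads and RPKM implied 668 bases for Sycp3 against a transcript of 1139 bases. For Ddx4 they implied 1942 bases against 2771 or more, and for Pnma5 3259 against 2785 at most. The summed RPKM of all 10 genes was 24.1 in wild type and 97.3 in the library labelled Prep1-/-. Pnma5, Rpl39l and Cyct made up 7.99 and 76.4 of these sums, and the other 7 genes made up 16.1 and 20.9. In bulk RNA, fewer cells that express a gene and less RNA per cell cannot be told apart.

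**Figure D1:**
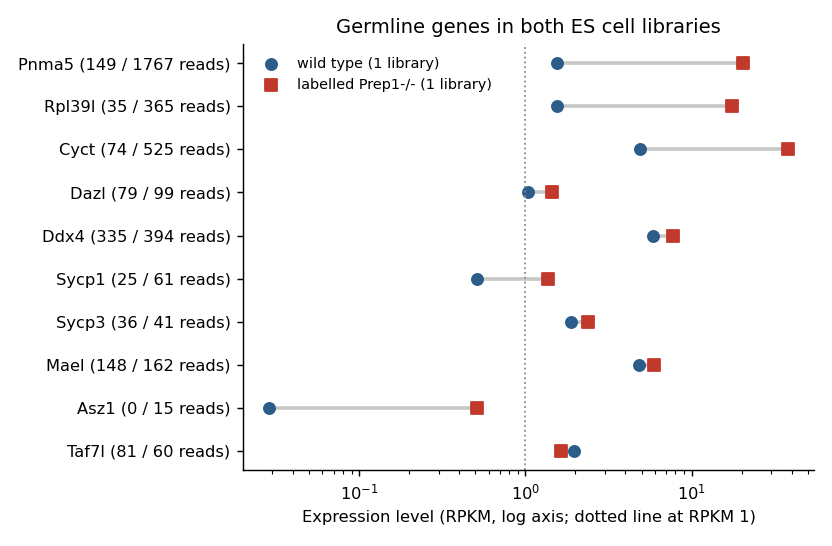
Level of each of the 10 genes in RPKM (log axis) in the wild type library (circles) and the library labelled Prep1-/- (squares), with the reads of both beside the gene's name. Pnma5, Rpl39l and Cyct stand apart to the right in the library labelled Prep1-/-, at 20.5, 17.6 and 38.3 RPKM, while Ddx4, Mael, Sycp3 and Taf7l lie close in both libraries. Asz1 with 0 wild type reads is drawn at the RPKM of 0.0287 that its file lists.

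Pnma5 belongs to the paraneoplastic Ma antigen family, whose genes descend from the gag gene of a retrotransposon. It lies on the X chromosome (mm9 chrX:70279327-70282442, minus strand). It had 149 reads and an RPKM of 1.55 in wild type against 1767 reads and an RPKM of 20.5 in the library labelled Prep1-/-. Its KO/WT ratio was 13.2 (11.2 to 15.8), the highest of 12725 genes that exceeded RPKM 1 in each library and had no fewer than 20 reads in all. Part of this transcript cannot be assigned with certainty, because 25.9% of its stretches of 50 bases, the read length, also occur in transcripts of the neighbouring paralog Pnma3. The coding sequences of the 2 genes were identical at 64.6% of 1365 aligned bases, with a longest identical run of only 16 bases. The files assign 5 and 13 reads to Pnma3 and do not show how many reads matched both genes.

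Rpl39l encodes the testis version of ribosomal protein L39, a small protein of the exit tunnel of the large ribosomal subunit. It lies at mm9 chr16:10170319-10175004 on the plus strand. Reads numbered 35 in wild type and 365 in the library labelled Prep1-/-, which gave RPKM values of 1.54 and 17.6. Its ratio was 11.4 (8.23 to 17.0), the second in the same order. The coding sequences of Rpl39l and of its widely used paralog Rpl39 are shown because reads of so similar a pair could be exchanged between them. Both are 156 bases long in GENCODE on mm9, and the 23 bases at which they differ are in capitals:
Rpl39l: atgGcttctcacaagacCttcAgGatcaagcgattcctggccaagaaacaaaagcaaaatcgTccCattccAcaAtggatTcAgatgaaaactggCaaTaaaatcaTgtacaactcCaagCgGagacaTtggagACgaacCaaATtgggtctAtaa
Rpl39: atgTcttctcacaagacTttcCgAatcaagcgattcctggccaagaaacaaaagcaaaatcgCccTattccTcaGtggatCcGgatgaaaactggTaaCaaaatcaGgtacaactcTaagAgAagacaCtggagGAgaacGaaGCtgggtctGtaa
They were identical at 133 of 156 positions (85.3%). The longest identical run was 38 bases, shorter than a read, and no stretch of 50 bases of any Rpl39l transcript occurred in another gene. Exact stretches cannot show how reads with mismatches were assigned, here or for Cyct below. Rpl39 had 152 and 120 reads and a ratio of 0.884 (0.689 to 1.13). The RPKM of Rpl39 (92.5 and 81.8) is not comparable with that of Rpl39l, because its reads and RPKM imply a length of 56 bases against a transcript of 612 bases.

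Cyct encodes the testis form of cytochrome c, the electron carrier of the mitochondrial respiratory chain. It lies on the minus strand at mm9 chr2:76191999-76198507. It had 74 reads in wild type and 525 in the library labelled Prep1-/-, with RPKM values of 4.89 and 38.3. The ratio of 7.84 (6.21 to 10.3) was the third of the 12725 genes. Its somatic paralog Cycs was listed with 0 reads and an infinite RPKM in both libraries, as 85 genes were, and gives no comparison. The coding sequences of Cyct and Cycs shared 76.1% of 318 bases, with a longest identical run of 14 bases, and no stretch of 50 bases of Cyct occurred in another gene.

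Likeness to these 3 genes was taken as the difference of log2 ratios, among named genes (clone names left out) that passed RPKM 1 in each library with 100 reads or more. For each of them the nearest genes were the other two and then Sohlh2, which encodes a transcription factor of early germ cells and had 105 and 438 reads (ratio 4.63, 3.76 to 5.83). Such likeness rests on 2 libraries only. Of the expressed genes that also had 20 reads or more, 0.283% (38 of 13425) were called up by 5-fold or more. Pnma5, Rpl39l and Cyct are among the 38 by the way they were chosen. Of 56 other genes on the germline lists that met the same limits, 2 were among the 38 (Smc1b and Tex13). Both had RPKM under 1 in wild type (0.133 and 0.569) and met the limits only through the library in which they were higher. Nothing is read from this count. Of the 38 genes, 6 were on chromosome X, 4 on chromosome Y, and 13 had clone names. Nxf3, an X-linked gene of the mRNA export factor family that was on no list and was picked after its values were seen, had 42 and 748 reads (RPKM 0.651 and 12.7) and a higher ratio of 19.5 (14.6 to 27.9).

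The 2 annotated neighbours on each side of Pnma5, Rpl39l and Cyct, 12 genes in all, included 1 past a threshold, and 10 had reads in both libraries. They lay 2.44 kb (Zfp185) to 1311 kb (1810013L24Rik) away, so not all of them are local. Over all expressed genes 6.91% were up and 13.3% down. Around Pnma5, Zfp185 at a distance of 2.44 kb had a ratio of 1.07 (0.985 to 1.17) and Nsdhl had 0.878. On its other side lay Pnma3, with a ratio of 2.61 that its few reads leave between 0.973 and 10.4, and Xlr4a, which had 0 reads in both libraries. Around Rpl39l, Atf7ip2 at 17.8 kb had a ratio of 1.32 (1.03 to 1.70) and Emp2 had 0.758. On the other side of Rpl39l lay Grin2a, 175 kb away with 0 and 5 reads, and 1810013L24Rik, 1311 kb away with a ratio of 1.01. Around Cyct, Rbm45 at 9.53 kb had a ratio of 1.37 (1.25 to 1.51), Ttc30a1 had 1.54, Pde11a had 0.723 and Osbpl6 had 0.613. Ttc30a1, which lay 372 kb from Cyct, passed the study's threshold, with an interval of 1.19 to 2.00. Osbpl6 lay below the ratio limit of 0.7 but was outside the calls, with a wild type RPKM of 0.434.

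Among the genes that act on germ cell RNA, the differences between the libraries were small. Dazl, which encodes an RNA-binding protein that controls translation in germ cells, had 79 reads in wild type and 99 in the library labelled Prep1-/- (RPKM 1.03 and 1.45). Its ratio of 1.40 (1.03 to 1.91) lay just under the threshold of 1.5. Ddx4, the Vasa RNA helicase by which germ cells are commonly recognised, had 335 and 394 reads (RPKM 5.84 and 7.68). Its ratio was 1.31 (1.13 to 1.53). Both intervals lay above 1, while neither gene reached the threshold. Ddx4 maps to mm9 chr13:113388541-113442518 and Dazl to mm9 chr17:50418719-50432924, both on the minus strand.

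Mael and Asz1 act in the piRNA pathway, which silences transposons in germ cells. Mael (mm9 chr1:168131516-168168875, minus strand) had 148 and 162 reads, with RPKM values of 4.85 and 5.93. Its ratio of 1.22 had an interval of 0.973 to 1.54 that included 1. Asz1 (mm9 chr6:18000964-18059061, minus strand), which encodes a protein of the germ granules, had 0 reads in wild type and 15 in the library labelled Prep1-/-. This made it at least 5.59-fold higher, but its RPKM reached only 0.513, so it did not enter the calls. It was the only one of the 10 genes with RPKM at or under 1 in both libraries.

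Sycp1 and Sycp3 encode structural proteins of the synaptonemal complex, the scaffold that joins paired chromosomes in meiosis, with Sycp1 forming its transverse filaments and Sycp3 its lateral elements. Sycp1 (mm9 chr3:102622422-102740023, minus strand) had 25 and 61 reads and RPKM values of 0.510 and 1.36. Its ratio was 2.67 (1.69 to 4.54), and it passed the threshold of RPKM 1 only through the library in which it was higher. Sycp3 (mm9 chr10:87922314-87935981, plus strand) had 36 and 41 reads and RPKM values of 1.87 and 2.37. The ratio of 1.27 had a wide interval, 0.794 to 2.05. The value of Sycp3 is uncertain for another reason: 52.2% of its exon bases (660 of 1264) lie under exons of Chpt1 on the opposite strand, and reads of the 2 genes could be exchanged if counting did not separate the strands. The study speaks of transcripts from the sense strand but does not describe how strand was kept or used in counting. Chpt1 had 198 and 214 reads and a ratio of 1.21.

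Taf7l encodes a germ cell version of the TFIID subunit Taf7, part of the complex that recruits RNA polymerase II to promoters. It is X-linked (mm9 chrX:130994657-131011029, minus strand). It was the only one of the 10 genes with fewer reads in the library labelled Prep1-/-, 60 against 81 in wild type. The RPKM was 1.96 and 1.63, and the ratio of 0.832 had an interval of 0.583 to 1.17. Its paralog Taf7 had 1617 and 1356 reads and a ratio of 0.938 (0.872 to 1.01).

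**Figure D2:**
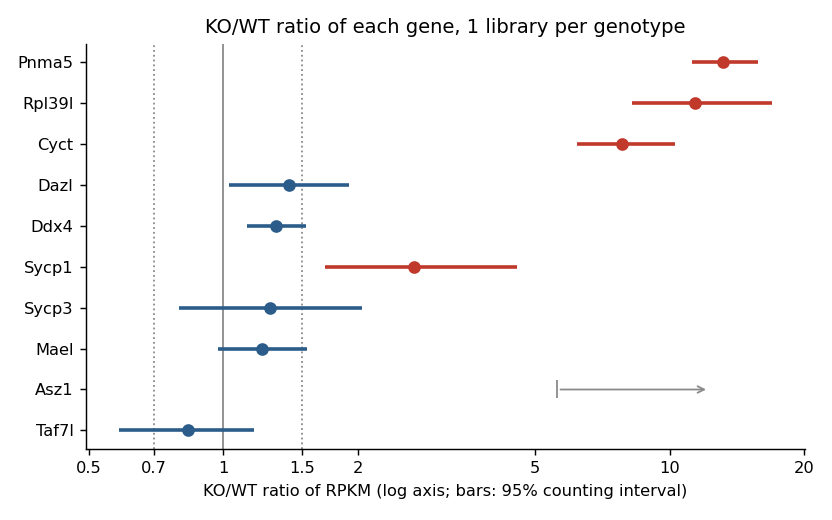
KO/WT ratio of the RPKM of each gene (points, log axis) with its 95% counting interval (bars); red marks the 4 genes past the study's threshold of 1.5, dotted lines mark ratios of 0.7 and 1.5 and the solid line a ratio of 1. Pnma5, Rpl39l and Cyct lie at 13.2, 11.4 and 7.84, away from the rest, and the intervals of Sycp3, Mael and Taf7l include 1. Asz1 is drawn as its lower bound of 5.59, with an arrow of no fixed length.

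With the ratio limits of the study, 4 of the 10 genes were up (Pnma5, Rpl39l, Cyct and Sycp1) and 0 were down, beside 6.91% and 13.3% of all expressed genes. Nothing is read from this count, since 3 of the 4 genes were chosen for it and Sycp1 exceeded RPKM 1 only where it was higher. When RPKM above 1 was required in wild type, which is a limit added after the data were seen, Sycp1 was no longer called and 3 of the 10 genes were up, beside 4.52% of all genes within that limit. Among genes with at least 20 reads whose higher RPKM did not exceed the 38.3 of Cyct, the share up was 6.42%. Of the genes with reads in both libraries, Sycp1 had the lowest ratio inside the threshold (2.67) and Dazl the highest outside it (1.40), and Asz1 was outside the calls through its low RPKM alone. In all, 9 of the 10 genes had RPKM above 1 in either library, 8 in wild type and 9 in the library labelled Prep1-/-. The median log2 ratio of the 10 genes was 0.95, with Asz1 at its bound, a value that the choice of Pnma5, Rpl39l and Cyct raises. Without Asz1, over the 9 genes with at least 20 reads, it was 0.48. Over the 7 genes not named for a strong rise it was 0.39, over the 10 ES cell markers described below 0.33, and over all expressed genes -0.07. Of the 7 genes, 6 had RPKM above 1 in either library (all but Asz1). A ratio above 1 was found for 5 of these 6 and for 41.4% of all expressed genes. Counting intervals lay wholly above 1 for 3 of the 6 (Dazl, Ddx4 and Sycp1) and for 20.7% of all expressed genes, and those of Sycp3, Mael and Taf7l included 1. Pnma5 and Taf7l are X-linked, and on that chromosome 17.0% of the 610 expressed genes were up and the median ratio of 548 genes was 1.08. The part of the difference in sex chromosomes between the libraries in the ratios of X-linked genes was not tested.

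The wider germline programme was described with 5 lists, counted without the 10 genes. They were written with earlier results of these data known, as were the marker lists. A gene with RPKM at or under 1 in wild type could enter the counts only by being higher in the library labelled Prep1-/-, so each count is followed by that for genes above RPKM 1 in wild type, a limit added after the data were seen. On the list of the synaptonemal complex and meiotic recombination, 23 of 29 genes were measured and 14 had RPKM above 1, of which 8 were up and 0 down (median log2 ratio 0.78). Smc1b, Tex11, Hormad1 and Hormad2 passed only through the library in which they were higher, and within the wild type limit 4 of 10 were up (median 0.44). Smc1b, a meiotic cohesin subunit, had 11 and 126 reads (ratio 11.8, 6.92 to 26.3). Syce1, which builds the central element of the synaptonemal complex, had 169 and 415 reads (2.74, 2.29 to 3.30). Tex11 had a ratio of 2.59, Hormad1 and Hormad2, which mark unpaired chromosome axes, 2.10 and 2.07, and Mnd1, a partner in strand exchange, 1.89. The genes that were up on this list thus encode both structural and recombination proteins.

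On the piRNA list 12 of 16 measured genes had RPKM above 1, and 5 were up and 1 down (median log2 ratio 0.40). Within the wild type limit 2 of 9 were up (median 0.18), without Stk31, Fkbp6 and Mov10l1. Those up were Stk31 (2.13), Fkbp6 (2.02), Gtsf1 (1.96), Mov10l1 (1.84) and Piwil2 (1.62), the last of which encodes a piRNA-binding Argonaute protein and had 617 and 894 reads. Gtsf1 had only 11 and 20 reads and an interval of 0.929 to 4.70. Tdrd1, a Tudor protein of the germ granules, was down at 0.670 (211 and 126 reads). On the list of germ cell RNA-binding and specification genes, 16 of 21 measured genes had RPKM above 1, with 4 up and 1 down (median 0.09), and within the wild type limit, without Tex19.2, 3 of 15 were up (median 0.08). Sohlh2, described above, was the furthest. Prdm14 and Prdm1, transcriptional regulators of primordial germ cell specification, had ratios of 2.94 (186 and 490 reads) and 1.87 (224 and 376 reads), and Tex19.2 had 1.71. The RNA helicase gene Ddx25 was down at 0.677 (0.547 to 0.832).

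Among other X-linked germline genes 5 of 13 measured had RPKM above 1, and 4 of the 5 were up (median 1.04), or 2 of 3 within the wild type limit (median 0.98), without Tex13 and Tex11. Tex13 had 31 and 303 reads (10.6, 7.54 to 16.4). Rhox6 and Rhox9, homeobox genes of the reproductive Rhox cluster, had ratios of 2.06 (156 and 288 reads) and 1.97 (122 and 216 reads). On the list of other testis copies of widely used genes, 4 of 19 measured had RPKM above 1. Of these 1 was up, the tubulin gene Tuba3a with 31 and 93 reads (3.28, 2.21 to 5.21). Taf9b, Cstf2t and Tbpl1 had ratios of 1.02, 1.02 and 0.896. The median was 0.03, the same within the wild type limit. How far the genes of this list are limited to testis was not checked. Taken as 1 list, the germline genes outside the 10 numbered 91 measured and 50 with RPKM above 1, of which 21 were up and 2 down (median 0.43), beside the same 6.91% and 13.3% of all expressed genes. Of the 21 genes, 9 passed only through the library in which they were higher. Within the wild type limit 12 of 41 were up, with a median of 0.18, beside 4.52% and a median of -0.08 for all genes. Germline genes were also found on the other side, below the RPKM limit and picked after their values were seen. The X-linked deubiquitinase gene Usp26 had 173 reads in wild type and 8 in the library labelled Prep1-/- (RPKM 0.746 and 0.0432, ratio 0.0578), and Prdm9, which sets the sites of meiotic recombination, had 23 and 5 reads (0.280, 0.0722 to 0.654).

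**Figure D3:**
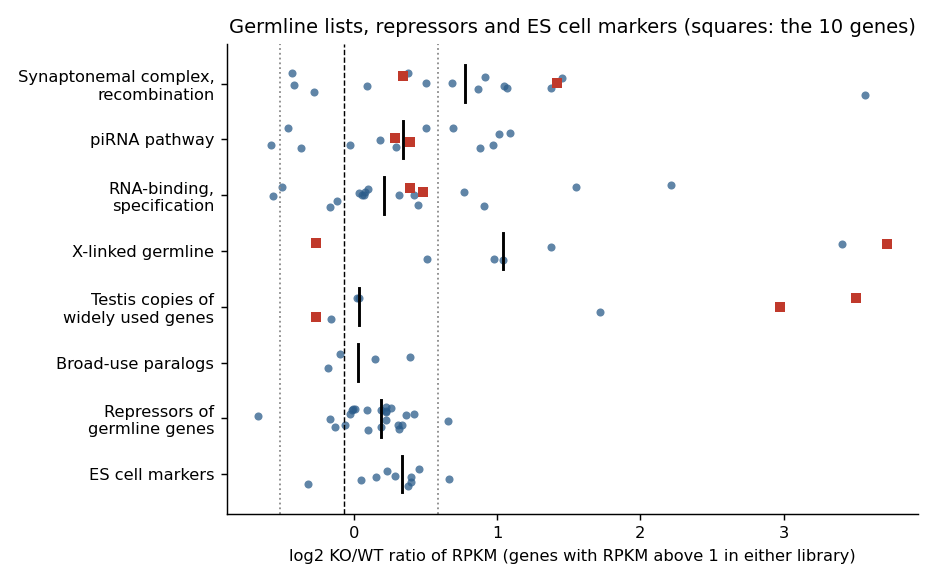
log2 KO/WT ratio of every gene with RPKM above 1 in either library (points) on the germline lists, the broad-use paralogs, the repressors of germline genes and the ES cell markers; squares are the 10 genes, short black lines the medians, dotted lines the thresholds of 0.7 and 1.5, and the dashed line the median of all expressed genes (-0.07). A gene on more than 1 list is drawn in each; points reach furthest right among X-linked genes, testis copies and meiotic genes, while repressors and ES cell markers stay near the thresholds or between them.

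Of the 10 listed paralogs of the 10 genes, only 4 had RPKM above 1 and could be called, with 0 up and 0 down (median log2 ratio 0.03). Beside Rpl39 and Taf7, Ddx3x had a ratio of 1.11 (1.07 to 1.15) and Pnma2 had 1.31 (1.18 to 1.46). Pnma1, Pnmal1 and Pnmal2 had between 3 and 12 reads in each library. Sycp2, the relative of Sycp3 on this list, is itself a meiotic gene and had 14 and 23 reads. Under RPKM 1, Pnma3 (2.61), Sycp2 (1.79) and Pnmal1 (0.639) lay beyond the ratio limits, with intervals that included 1.

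Genes that are known to keep germline genes silent or to set their DNA methylation were measured as RNA only. All 23 measured of 27 had RPKM above 1, with 1 up and 1 down (median 0.19). The maintenance methyltransferase gene Dnmt1 had a ratio of 1.17 and its partner Uhrf1 1.29. The de novo enzyme genes Dnmt3a and Dnmt3b had 0.995 and 1.01, and their cofactor Dnmt3l 0.959. Components of the E2F6, MGA and MAX repressor complex had ratios of 1.24 for E2f6, 1.17 for Mga, 1.06 for Max, 1.20 for Pcgf6 and 1.17 for L3mbtl2, and the histone methyltransferase gene Setdb1 had 0.894. Past the thresholds were Tet1, which encodes an enzyme that oxidises methylated cytosine, at 1.58 (2610 and 3689 reads), and Wiz, a partner of the H3K9 methyltransferases, at 0.631 (8247 and 4651 reads). DNA methylation itself was not analysed here.

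Markers of ES cells and of other cell types were set beside these values. All 10 ES cell markers had RPKM above 1 in both libraries, between 11.7 and 767 in wild type, and Klf4 alone was past a threshold (1.58). Of these markers 9 had a ratio above 1, all but Zfp42 (0.801), and their median log2 ratio was 0.33. A modest rise was thus not particular to the germline genes. Of the 8 primordial germ cell markers, Prdm1 alone was past it. Spermatid markers were nearly absent: over the 7 measured the summed RPKM was 0.632 and 1.65, Tnp1 had 0 reads in both libraries and Tnp2 had 2 and 1, and Gsg1 was up with 4 and 49 reads (11.2, 5.02 to 52.3). Of 9 measured oocyte markers 3 exceeded RPKM 1. They were Ooep (23.2 and 44.6 RPKM, up at 1.92), Zp3 (10.3 and 11.4 RPKM) and Npm2. The last was lower in the library labelled Prep1-/-, with 29 and 18 reads (0.708, 0.363 to 1.29). Among the others, Gdf9 had 12 and 19 reads, Bmp15 0 and 2, Zp1 6 and 0, Zar1 6 and 2, Zp2 3 and 2, and Oosp1 had 0 in both libraries. Among 9 Sertoli and Leydig cell markers 2 had RPKM above 1 and 0 passed a threshold, with summed RPKM of 43.8 and 41.0, most of it from Dmrt1 (30.2 and 25.3) and Insl3 (11.3 and 13.6), while Fshr and Hsd3b1 had 0 reads. The 9 fibroblast markers, which would show feeder cells, had summed RPKM of 25.2 and 30.8, with 3 above 1 and 0 past a threshold, and under RPKM 1 Postn had 6 and 33 reads while Pdgfra had 38 and 10. The part of such cells in the values of the 10 genes was not tested.

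The promoters of the 10 genes were read from RefSeq on GRCm38.p6, from 250 bases before to 50 bases after each start, and all 10 genes had 1 window. The 250 upstream bases of 4 genes are shown on the gene's own strand because they span the range of CpG content, with each CG in capitals. The windows are chrX:73037104-73037353 (minus strand), chr16:10169978-10170227 (plus strand), chr2:76360454-76360703 (minus strand) and chr13:112652311-112652560 (minus strand):
Pnma5: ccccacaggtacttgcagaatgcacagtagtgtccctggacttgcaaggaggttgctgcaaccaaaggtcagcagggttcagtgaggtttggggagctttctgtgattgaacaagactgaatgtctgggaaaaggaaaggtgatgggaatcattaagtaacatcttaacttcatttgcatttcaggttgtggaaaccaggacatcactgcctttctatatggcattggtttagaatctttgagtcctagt
Rpl39l: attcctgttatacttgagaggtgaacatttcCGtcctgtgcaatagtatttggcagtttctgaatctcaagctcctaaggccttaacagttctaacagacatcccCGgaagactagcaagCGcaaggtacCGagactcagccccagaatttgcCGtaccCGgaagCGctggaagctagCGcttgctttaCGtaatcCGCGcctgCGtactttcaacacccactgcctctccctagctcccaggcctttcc
Cyct: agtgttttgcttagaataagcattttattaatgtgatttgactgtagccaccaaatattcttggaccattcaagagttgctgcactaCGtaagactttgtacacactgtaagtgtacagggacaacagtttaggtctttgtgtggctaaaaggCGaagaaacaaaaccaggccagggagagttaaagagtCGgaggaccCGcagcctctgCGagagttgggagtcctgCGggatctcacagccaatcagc
Ddx4: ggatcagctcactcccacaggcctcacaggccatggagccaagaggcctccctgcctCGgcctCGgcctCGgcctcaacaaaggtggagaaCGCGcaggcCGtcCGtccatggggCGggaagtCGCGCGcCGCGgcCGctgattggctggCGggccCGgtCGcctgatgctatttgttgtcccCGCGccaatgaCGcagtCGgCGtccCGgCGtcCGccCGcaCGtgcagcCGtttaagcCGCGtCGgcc
No CG occurred in the 250 bases before Pnma5, 12 occurred before Rpl39l, 6 before Cyct and 31 before Ddx4. Over the whole window, the observed count of CpG divided by the count expected from base composition was 0.0679 for Pnma5, 0.836 for Rpl39l and 0.466 for Cyct. The 3 genes with the highest KO/WT ratios thus differed widely in CpG content. The other 7 lay between 0.666 (Sycp3) and 1.03 (Taf7l), with 0.795 for Dazl, 0.978 for Ddx4, 0.874 for Sycp1, 0.780 for Mael and 0.783 for Asz1. The median of the 10 was 0.789, against 0.384 for all 32851 windows and 0.756 for the 10181 windows of genes with RPKM above 1. Only 1.20% of the windows of expressed genes had a lower ratio than Pnma5.

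**Figure D4:**
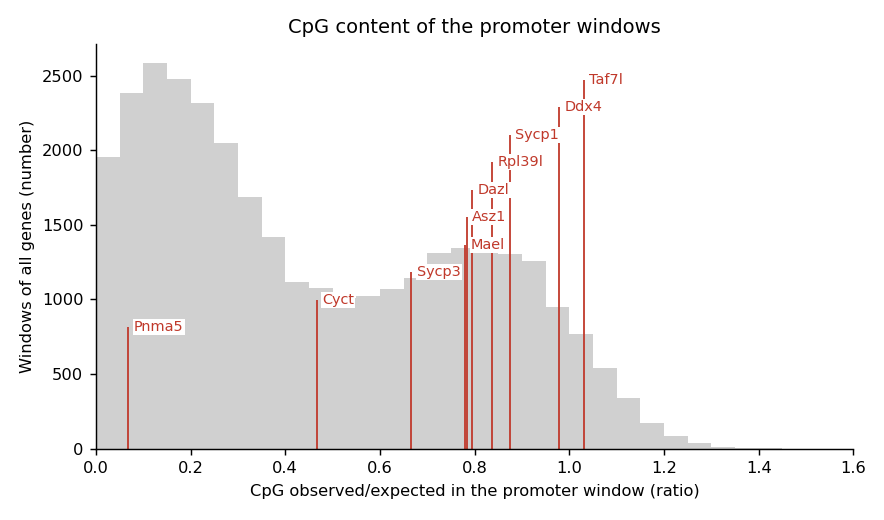
Number of promoter windows of all genes (grey bars) by CpG observed/expected ratio in bins of 0.05, with the 10 genes as red lines whose height only separates the names; 1 window lies beyond the axis. Pnma5 lies in the CpG-poor part at 0.0679 and Cyct between the peaks at 0.466, while the others lie from 0.666 to 1.03.

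Short motifs were then searched on both strands of the 300-base windows. The E-box CACGTG, a sequence that MAX and its partners can bind, was found in 5 of the 10 windows, those of Ddx4, Sycp1, Sycp3, Mael and Taf7l, with 2 copies before Sycp3. It was in 7.15% of all windows, in 10.3% of those of expressed genes, and in a window of 19 of the 89 other germline genes with one (21.3%). Pnma5, Rpl39l and Cyct held none. The 30 bases around each copy are shown on the gene's strand, on GRCm38.p6, with the motif in capitals:
Ddx4, chr13:112652322-112652351, minus strand: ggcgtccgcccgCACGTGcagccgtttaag
Sycp1, chr3:102936177-102936206, minus strand: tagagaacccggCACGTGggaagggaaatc
Sycp3 (distal), chr10:88459511-88459540, plus strand: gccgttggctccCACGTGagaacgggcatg
Sycp3 (proximal), chr10:88459532-88459561, plus strand: acgggcatggagCACGTGctaggaggcggg
Mael, chr1:166238950-166238979, minus strand: taccaggcctacCACGTGacaatccccgcc
Taf7l, chrX:134476522-134476551, minus strand: accctcttatacCACGTGacagaactcgcc
Counted from the start, the motif began 29 bases upstream for Ddx4, 94 for Sycp1, 64 and 43 for Sycp3, 223 for Mael and 49 for Taf7l. The E2F-like motif TTCCCGC occurred in the windows of Ddx4 and Sycp3, and in 4.60% of all windows and 8.49% of those of expressed genes. The Prep1 decamer, TGA followed by any base and TGACAG, occurred in 0 of the 10 windows and in 0.874% of all windows. A match is a match of letters and not a shown site of binding.

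Prep1 ChIP-seq peaks, called by the study in wild type cells on mm9, were measured against the start of each gene, a measure independent of the RNA. A peak lay within 20 kb of 2 of the 10 starts (Sycp3 and Taf7l), beside 18.9% of all 21446 genes with a position. For the other 8 genes the nearest peak was 84.2 kb (Sycp1) to 1010 kb (Asz1) away, with 191 kb for Pnma5, 196 kb for Rpl39l and 551 kb for Cyct. The peak at Sycp3, chr10:87921871-87922483, had an 11-fold enrichment over input DNA in the file and covered both annotated starts of the gene. The peak at Taf7l, chrX:131009505-131009858, had a 17-fold enrichment. It lay inside the gene, 1.17 kb from its outermost start, and covered 2 of its 3 annotated transcript starts. Neither peak held an exact decamer. The closest stretch in the Taf7l peak differed from it at 1 of the 9 fixed bases, and is shown on its own, minus, strand with the 10 aligned bases in capitals, outside annotated exons:
chrX:131009618-131009647, minus strand, mm9: ctcagccctcTGATTGACGGgcagccccac
In the Sycp3 peak the closest stretch differed at 2 bases. The Fgf4 promoter site given by the study also differs from the exact decamer, at 1 base. Lack of an exact match thus does not show lack of a site. Among the 91 other germline genes 18 (19.8%) had a peak within 20 kb. The ratios of the genes with a peak nearby were 1.27 for Sycp3 and 0.832 for Taf7l, both with intervals that included 1.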

How the data were processed

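RNA-seq of 1 wild type library and 1 library labelled Prep1-/- was used, and the input DNA of the ChIP-seq was not analysed here. The authors assigned paired-end reads to Ensembl 63 genes on mm9 with RSEM, followed by DESeq; versions are not given in the sources used here. The deposited read counts are whole numbers per gene. The authors' RPKM follows the read count plus 1, and in every gene with finite values the KO/WT ratio of RPKM was 1.12 times that of the counts plus 1. The peak list deposited by the authors (BWA, MACS) carries a score, read as fold enrichment rounded to whole numbers. The 10 genes, lists and rules were chosen with earlier results of these data known.

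From these, KO/WT ratios of RPKM were taken without a further pseudocount. Exact binomial intervals (scipy 1.17.1) came from the read counts without the added read and were multiplied by 1.12. In genes with few reads the ratio and its interval thus rest on slightly different counts. Reads are not independent molecules, so intervals cover counting error only. No test across genes was run. Genes were called with RPKM above 1 and a ratio above 1.5 or below 0.7, the RPKM limit being applied to the higher library. Alternatives used edgeR 4.0.16 (TMM), other scalings, filters and pseudocounts. The ratio and its interval were run on simulated counts with counting error only, which cannot show how far replicates or lines would differ. Gene positions and peak sequences are from GENCODE M1 on mm9, and promoters from RefSeq on GRCm38.p6. Windows, coding sequences and motifs were read with Python 3.11.15 and biopython 1.88. Protein sequences were not used here, and coding sequences were aligned in their place. The genes named are the 10 genes and their paralogs, up to 6 genes per germline list past a threshold with at least 20 reads, neighbours and nearest genes of Pnma5, Rpl39l and Cyct, Pknox1, and the checks.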

Additional observations from a re-analysis of the deposited data

How the results depend on the processing

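The counts of the 10 genes past a threshold, 4 up and 0 down, changed little: 0 were down in every alternative, 5 were up (with Asz1) without a limit on RPKM, 3 were up (without Sycp1) where wild type or mean RPKM had to exceed 1, and 4 in the others, and the median log2 ratio ran from 0.45 (1 added to RPKM) to 1.04 (chromosome median subtracted). Of 54 alternative values of the ratios of the 9 genes with one, 0 changed direction and 51 moved by less than their counting interval; with 1 added to both RPKM values the ratios of Pnma5, Rpl39l and Sycp1 were 8.41, 7.29 and 1.56. For the germline genes outside the 10, the count of 2 down was 0 with TMM factors, with the median ratio set to 1, with 1 added to RPKM, with the chromosome median subtracted and with ratios of 0.5 or 2 as limits. With these limits 12 genes were up, as were 12 where wild type had to exceed RPKM 1 and 19 where the mean had to (both limits chosen after seeing the data), and without a limit on RPKM 34 were up and 11 down. TMM factors called 1160 genes up and 1558 down over all genes, against 985 and 1899. With peaks of at least 100-fold enrichment only, 0 of the 10 starts had a peak within 20 kb. No paired analysis was possible because there was 1 library of each genotype, so no replicate could be left out either. Genes with few reads, above all Asz1 and Sycp3, are limited by depth.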
